A study of Mus musculus with 16 samples.

Results

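The genes described here are 10 genes of natural killer (NK) cells, cytotoxic lymphocytes and the CXCR3 chemokine axis, taken by symbol from a table of 39328 genes: Ifng, Tbx21, Gzma, Gzmb, Nkg7, Klrd1, Ccl5, Cxcr3, Cxcl9 and Cxcl10. Each of the 10 symbols matched 1 gene of the table. RNA was sequenced from whole colon tissue of adult wild-type mice of the outbred ICR stock, in 4 groups of 4 libraries, 16 in all. CON_VD animals had been born by vaginal delivery and CON_CS animals by cesarean section, and both drank normal water. DSS_VD (vaginal delivery) and DSS_CS (cesarean section) animals drank water with 3% dextran sulfate sodium (DSS), a polymer toxic to the colon epithelium, over 8 days. By its title, the series is about how prone mice born by cesarean section are to colitis. Nothing in the labels ties a library to a single mouse, a litter, a sex or a segment of the colon, so p-values cover only the spread between these libraries, which may be technical.

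NK cells and cytotoxic T cells kill target cells by releasing granules, in which granzymes are the proteases that enter the target. The same cells secrete interferon-gamma, whose expression depends on the transcription factor T-bet, the product of Tbx21. Interferon-gamma acts on macrophages, epithelium and endothelium and makes them secrete the chemokines CXCL9 and CXCL10, which attract further T-bet-expressing lymphocytes through the receptor CXCR3. In the colon this loop is part of type 1 immunity and is active in several forms of colitis.

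Expression is given in FPKM, a count of fragments scaled by gene length and by library total, as deposited by the authors, so levels can be compared between genes per unit length. The depth behind them is unknown. FPKM sums per library ranged from 280135 to 343423. Epcam, a marker of gut epithelium, was at 618 to 756 FPKM in the water groups, 317 to 716 in DSS_VD and 91.9 to 312 in DSS_CS. CON_VD replicate 1 stood apart from its group in leukocyte RNA: 10 leukocyte markers such as Ptprc and Coro1a summed to 98.7 FPKM there and to 30.1 to 34.5 in the other 3 CON_VD libraries. Pbsn, a gene of the prostate, was listed at 185 FPKM in CON_CS replicate 1 and at 128 and 1355 in DSS_CS replicates 3 and 4, against at most 0.526 in the other 13 libraries. Calls of the members are also given without CON_VD replicate 1 for DSS in vaginally born mice, and without DSS_CS replicates 3 and 4 for DSS in cesarean-born mice and between the DSS groups. In these whole-tissue libraries fewer cells of a type and less RNA per cell cannot be told apart.

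After DSS most of the genes of killing and of lymphocyte attraction that could be tested were higher, with exceptions in each delivery group: Nkg7 was not called in vaginally born mice, Cxcl9 was not called in cesarean-born mice, and Cxcr3 reached the filter for the test in neither. In vaginally born mice Gzma, Gzmb, Klrd1, Ccl5, Cxcl9 and Cxcl10 passed the threshold, 6 higher of the 7 members that could be tested. In cesarean-born mice Gzma, Gzmb, Nkg7, Ccl5 and Cxcl10 passed it, 5 higher of 6 tested. The count was 4 of 6 without DSS_CS replicates 3 and 4, where 3129 of all 12965 genes tested were called higher. Without CON_CS replicate 1, the water library with Pbsn, it was 5 of 6, where 4725 of all 13972 genes tested were called higher. Tests were run with limma on log2(FPKM + 1) over every gene that reached 1 FPKM in at least 4 of the 8 libraries compared, with a threshold of 0.05 on the adjusted p. Over all genes tested, 24.0% were called higher in DSS_VD than in CON_VD, and 34.4% in DSS_CS than in CON_CS. A member that reaches the filter only through its DSS libraries had to differ, so these counts describe the tested members and not the group of 10. The group ranges of FPKM lay apart for 2 of the 10 members in vaginally born mice (Cxcr3 and Cxcl9), against 14.7% of all genes above 0, and for 6 of 10 in cesarean-born mice (Tbx21, Gzma, Gzmb, Klrd1, Ccl5 and Cxcr3), against 21.2%. Without CON_VD replicate 1 the ranges of DSS_VD and of the other 3 CON_VD libraries lay apart for 10 of 10, against 16.9% of all genes above 0, and 6 of the 6 members still tested were called higher, against 22.3% of all genes tested. Of these, Gzma, Gzmb, Nkg7, Cxcl9 and Cxcl10 were below 1 FPKM in each of those 3 CON_VD libraries and had to differ. The count of calls is therefore not a result about the members.

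**Figure D1:**
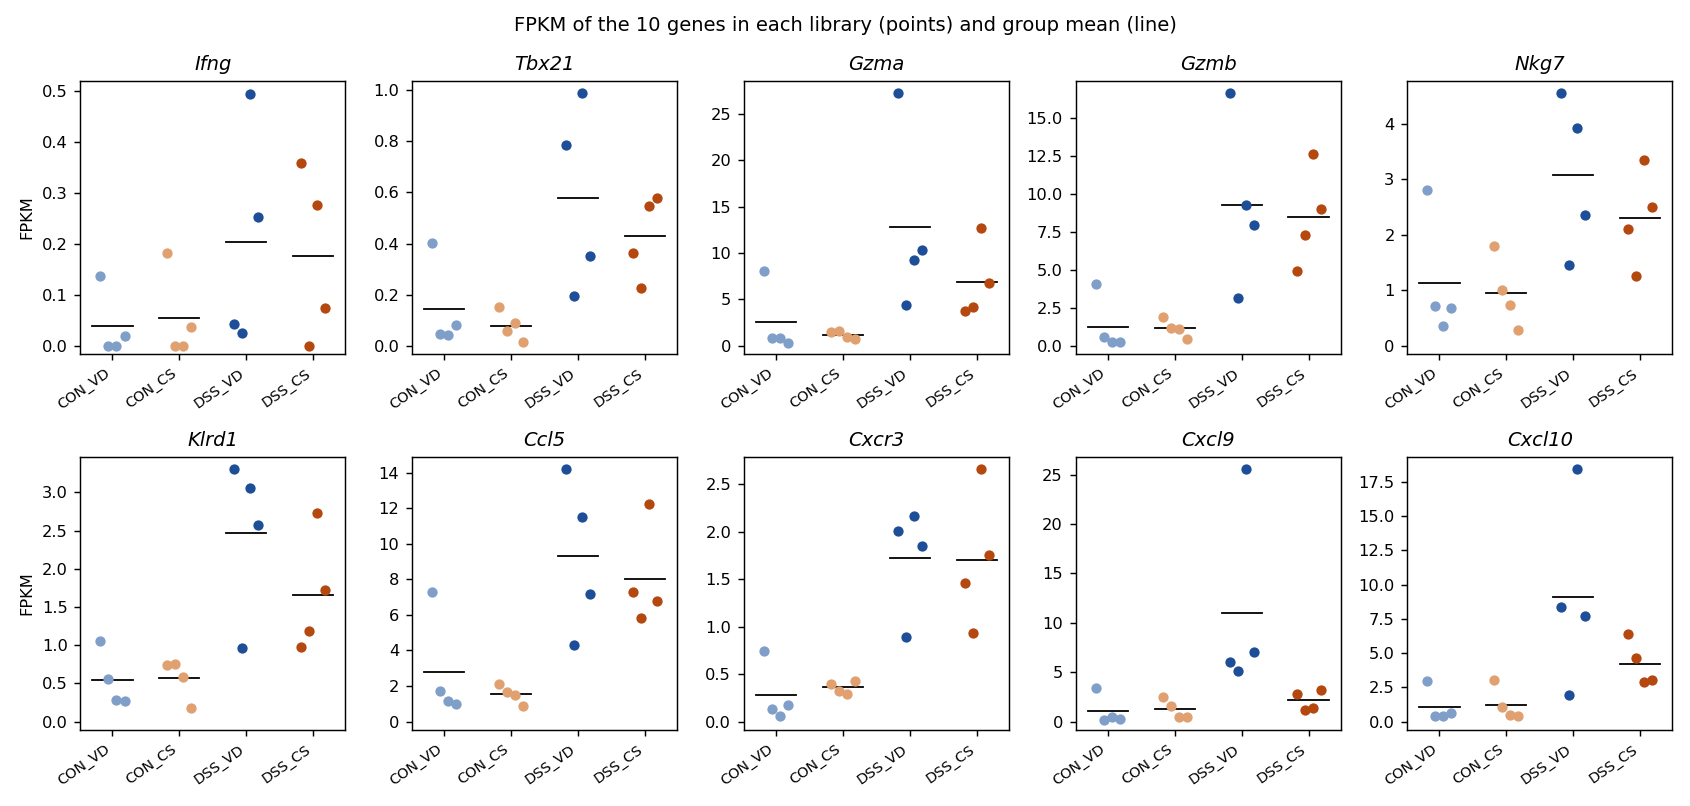
FPKM (vertical axis, linear, a separate scale per gene) of the 10 genes in each of the 16 libraries, by group; points are libraries and lines are group means. CON_VD replicate 1 is the highest water point for 8 of the 10 genes, and Cxcl9 is the gene whose 4 DSS_CS points, 1.2 to 3.23 FPKM, all lie below its 4 DSS_VD points, 5.16 to 25.5.

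The cytokine and its regulator were close to the lower end of the measurable range. Ifng, the interferon-gamma gene (chromosome 10, 118441046 to 118445892, plus strand, GRCm38), was listed at 0.137, 0, 0 and 0.0199 FPKM in the 4 CON_VD libraries and at 0.183, 0, 0 and 0.0379 in CON_CS. After DSS it was at 0.0422, 0.0257, 0.495 and 0.253 in DSS_VD and at 0.358, 0, 0.277 and 0.0742 in DSS_CS. The groups overlapped, with 2 libraries of each water group and 1 DSS_CS library listed at 0, and Ifng passed the filter in no comparison. Exact two-sided permutation tests on the mean log2(FPKM + 1) gave p = 0.171 for DSS in vaginally born mice, 0.257 for DSS in cesarean-born mice and 0.886 between the DSS groups. The 70 splits of 8 libraries allow the exact permutation test no p below 0.0286. Such tests were made for 10 members in 4 comparisons, 40 in all, and their p-values are not adjusted.

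Tbx21 (chromosome 11, 97098071 to 97115331, minus strand) was at 0.404, 0.0446, 0.0428 and 0.0807 FPKM in CON_VD and at 0.154, 0.0571, 0.0883 and 0.0133 in CON_CS. In DSS_VD it was at 0.786, 0.196, 0.987 and 0.350, and in DSS_CS at 0.362, 0.225, 0.547 and 0.579. All 4 DSS_CS libraries lay above all CON_CS libraries, while 2 of the DSS_VD libraries lay below CON_VD replicate 1. With no filter on low values, limma called the rise in cesarean-born mice (log2 0.40 ± 0.09 SE, adjusted p = 0.00894) and did not call the one in vaginally born mice (log2 0.45 ± 0.18, adjusted p = 0.132). Group means were 0.580 ± 0.369 FPKM (SD, n = 4) in DSS_VD and 0.428 ± 0.166 in DSS_CS, which the exact permutation test did not separate (p = 0.6).

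Gzma encodes granzyme A, a tryptase-like granule protease (chromosome 13, 113093825 to 113100981, minus strand). It was at 8.03, 0.892, 0.811 and 0.357 FPKM in CON_VD and at 1.52, 1.66, 0.953 and 0.699 in CON_CS. After DSS it was at 27.2, 4.40, 9.29 and 10.3 in DSS_VD and at 3.75, 4.21, 12.7 and 6.80 in DSS_CS. DSS_VD replicate 1 was the highest library by far, and DSS_VD replicate 2 was the only DSS_VD library below CON_VD replicate 1. The rise with DSS was 2.18 ± 0.65 on the log2 scale in vaginally born mice (limma adjusted p = 0.0240) and 1.72 ± 0.32 in cesarean-born mice (adjusted p = 0.00153). The first of these calls was lost in 6 of 15 alternatives.

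Gzmb, granzyme B, is the protease that activates caspases in target cells (chromosome 14, 56258838 to 56262260, minus strand). It was at 4.05, 0.564, 0.243 and 0.226 FPKM in CON_VD and at 1.91, 1.21, 1.11 and 0.465 in CON_CS. In DSS_VD it was at 16.6, 3.18, 9.29 and 7.98, and in DSS_CS at 4.97, 7.33, 12.7 and 9.0. All DSS_CS libraries exceeded all CON_CS libraries, and in vaginally born mice only DSS_VD replicate 2 fell below CON_VD replicate 1. Gzmb was 7.29 times as high in DSS_VD as in CON_VD by group means (log2 2.29 ± 0.53, limma adjusted p = 0.00782) and 7.23 times as high in DSS_CS as in CON_CS (log2 2.10 ± 0.28, adjusted p = 1.81e-04).

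Nkg7 encodes a granule membrane protein of NK and T cells (chromosome 7, 43437073 to 43438249, plus strand). It was at 2.81, 0.716, 0.362 and 0.675 FPKM in CON_VD and at 1.81, 1.01, 0.732 and 0.287 in CON_CS. After DSS it was at 4.56, 1.45, 3.92 and 2.36 in DSS_VD and at 2.11, 1.26, 3.34 and 2.51 in DSS_CS. The water and DSS ranges overlapped in both delivery groups, through replicate 1 of each water group. Its difference was 0.98 ± 0.35 on the log2 scale in vaginally born mice (limma adjusted p = 0.0522, not called) and 0.77 ± 0.26 in cesarean-born mice (adjusted p = 0.0305), a call lost in 10 of 16 alternatives. Without CON_VD replicate 1 the difference in vaginally born mice was 1.30 ± 0.28 and passed the threshold (adjusted p = 0.00715). In that fit Nkg7 reached the filter only through its DSS libraries and had to differ.

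Klrd1 encodes CD94, the partner chain of the NKG2 receptors on NK cells and some T cells (chromosome 6, 129591782 to 129598775, plus strand). It was at 1.05, 0.561, 0.280 and 0.263 FPKM in CON_VD and at 0.742, 0.759, 0.578 and 0.177 in CON_CS. In DSS_VD it was at 3.31, 0.957, 3.06 and 2.57, and in DSS_CS at 0.982, 1.18, 2.72 and 1.72. The DSS_CS libraries all lay above the CON_CS libraries, whereas DSS_VD replicate 2 lay below CON_VD replicate 1. The rise in vaginally born mice, where Klrd1 reached the filter through 3 DSS libraries and CON_VD replicate 1, was 1.14 ± 0.26 (limma adjusted p = 0.00771). In cesarean-born mice Klrd1 missed the filter, and with no filter its rise was 0.74 ± 0.23 (adjusted p = 0.0400).

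Ccl5 encodes a chemokine that cytotoxic lymphocytes store and secrete (chromosome 11, 83525778 to 83530518, minus strand). It was at 7.31, 1.75, 1.18 and 0.969 FPKM in CON_VD and at 2.10, 1.67, 1.52 and 0.858 in CON_CS. In DSS_VD it was at 14.2, 4.30, 11.5 and 7.19, and in DSS_CS at 7.27, 5.83, 12.3 and 6.79. CON_VD replicate 1 exceeded 2 of the DSS_VD libraries, and no CON_CS library reached the DSS_CS range. Ccl5 rose by 1.60 ± 0.48 on the log2 scale in vaginally born mice (limma adjusted p = 0.0258, lost in 6 of 15 alternatives) and by 1.81 ± 0.23 in cesarean-born mice (adjusted p = 1.33e-04).

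Cxcr3, the receptor gene of the axis (chromosome X, 101731535 to 101734269, minus strand), was at 0.746, 0.133, 0.0584 and 0.177 FPKM in CON_VD and at 0.400, 0.326, 0.289 and 0.425 in CON_CS. In DSS_VD it was at 2.0, 0.886, 2.16 and 1.85, and in DSS_CS at 1.46, 0.934, 2.66 and 1.76. Every DSS library lay above every water library. With no filter on low values the rises were 1.09 ± 0.22 in vaginally born mice (limma adjusted p = 0.0117) and 0.95 ± 0.18 in cesarean-born mice (adjusted p = 0.00521), and the DSS groups had almost the same mean, 1.73 ± 0.574 and 1.70 ± 0.722 FPKM (SD, n = 4).

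The genes of the CXCR3 ligands lie next to each other on the minus strand of chromosome 5, Cxcl9 (ENSMUSG00000029417) at 92321347 to 92328079 and Cxcl10 (ENSMUSG00000034855) at 92346638 to 92348889, with 18558 bases between them. The 250 bases before each gene's start are printed below (RefSeq, GRCm38.p6, minus strand, read 5′ to 3′, chr5:92348890-92349139 for Cxcl10 and chr5:92328080-92328329 for Cxcl9). The values of Cxcl9 and Cxcl10 were not tested against each other. Capitals mark matches to an interferon-stimulated response element core (GAAA, any 2 bases, GAAA) or to the NF-kB consensus (GGG, A or G, any 2 bases, 2 bases of C or T, CC), searched on both strands.
Cxcl10: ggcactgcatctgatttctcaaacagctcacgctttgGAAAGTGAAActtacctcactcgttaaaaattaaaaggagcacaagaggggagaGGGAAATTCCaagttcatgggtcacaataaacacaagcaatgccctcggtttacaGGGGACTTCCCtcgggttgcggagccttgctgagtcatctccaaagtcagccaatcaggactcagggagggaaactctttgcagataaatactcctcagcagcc
Cxcl9: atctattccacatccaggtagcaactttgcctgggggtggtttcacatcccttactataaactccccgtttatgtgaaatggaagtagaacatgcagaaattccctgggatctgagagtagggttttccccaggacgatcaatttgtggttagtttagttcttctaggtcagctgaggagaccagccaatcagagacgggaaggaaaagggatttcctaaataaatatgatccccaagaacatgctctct
In the Cxcl10 window the response element core stands 213 to 204 bases before the start, and 3 NF-kB matches stand at 159 to 150 and, overlapping each other, at 104 to 95 and 103 to 94. The Cxcl9 window holds no exact match to either pattern, nor to the gamma-activated site TTCNNNGAA. Of 32851 promoter windows of the same length, 2.98% hold the response element core, 7.25% the NF-kB consensus and 7.02% the gamma-activated site. Among the 8 members with a window in the table, Ifng and Nkg7 hold a gamma-activated site match and Gzma a response element core, while Cxcr3, Gzmb and Tbx21 hold none of these motifs. A match describes letters and is no evidence of binding. Other forms of these elements were not searched, so a window without a match may still hold such elements.

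Cxcl9 was at 3.35, 0.203, 0.463 and 0.249 FPKM in CON_VD and at 2.52, 1.60, 0.496 and 0.421 in CON_CS. After DSS it was at 6.05, 5.16, 25.5 and 7.02 in DSS_VD and at 2.79, 1.2, 1.40 and 3.23 in DSS_CS. All 4 DSS_VD libraries were higher than any other library, and the DSS_CS libraries fell within the span of CON_CS except for the pair at 2.79 and 3.23. In vaginally born mice Cxcl9 was 10.3 times as high with DSS by group means (log2 2.48 ± 0.54, limma adjusted p = 0.00545). In cesarean-born mice the difference was 0.53 ± 0.34 and was not called (adjusted p = 0.203, 95% interval -0.23 to 1.29).

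Cxcl10 was at 2.98, 0.379, 0.381 and 0.639 FPKM in CON_VD and at 3.02, 1.06, 0.451 and 0.399 in CON_CS. After DSS it was at 8.35, 1.96, 18.4 and 7.73 in DSS_VD and at 6.38, 4.61, 2.86 and 3.03 in DSS_CS. Replicate 1 of each water group reached into the DSS range of its delivery group. Cxcl10 rose by 2.14 ± 0.55 on the log2 scale in vaginally born mice (limma adjusted p = 0.0125) and by 1.32 ± 0.35 in cesarean-born mice (adjusted p = 0.0104). Cxcl11, the remaining CXCR3 ligand of this family, stayed at or below 0.577 FPKM in every library.

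The central question of the design is how cesarean-born and vaginally born mice differed under DSS, and among these genes only Cxcl9 was called. Its mean was 10.9 ± 9.76 FPKM in DSS_VD against 2.16 ± 1.0 in DSS_CS (SD, n = 4), 0.197 times as high, and its group ranges lay apart. Cxcl9 fell by 1.69 ± 0.46 on the log2 scale (95% interval -2.74 to -0.65, limma adjusted p = 0.0459, lower in 4 of 4 DSS_CS libraries). It was the only call among the 8 members tested, where 5.54% of all tested genes were called lower and 7.89% higher. With 1923 of all 14313 tested genes called, 1 of 8 is near the share over all genes. The count is therefore not a result about the members. Ranges with DSS_CS below DSS_VD were found for 1 of 10 members and for 3.83% of all genes above 0, with an exact permutation p = 0.0286 for Cxcl9. The direction was kept in all 16 alternatives (log2 -2.07 to -1.21, adjusted p = 0.0202 to 0.167), but the call was lost in 11 of them. DSS_VD replicate 3, with 25.5 FPKM, was not needed for it: without that library the difference was -1.21 ± 0.25 (adjusted p = 0.0434). Leaving out any of the other 7 libraries gave adjusted p-values from 0.0528 to 0.118. Without DSS_CS replicates 3 and 4, the pair with Pbsn, the difference was -1.76 ± 0.61 (adjusted p = 0.167).

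For the remaining members the DSS groups were not separated, and the intervals show how large a difference the data leave possible. The cytotoxic genes gave differences of -0.69 for Gzma (95% interval -1.85 to 0.48, limma adjusted p = 0.392), -0.00088 for Gzmb (-0.96 to 0.96, adjusted p = 0.999), -0.27 for Nkg7 (-0.93 to 0.39, adjusted p = 0.564) and -0.37 for Klrd1 (-1.02 to 0.29, adjusted p = 0.413). Ccl5 differed by -0.13 (-0.90 to 0.65, adjusted p = 0.840) and Cxcr3 by -0.02 (-0.54 to 0.50, adjusted p = 0.960). Cxcl10 differed by -0.72 (-1.88 to 0.44, adjusted p = 0.370), and all of its 4 DSS_CS values lay above DSS_VD replicate 2 and below the other 3 DSS_VD values. A fall by 1 in log2(FPKM + 1) is inside the intervals of Gzma, Klrd1 and Cxcl10 and outside those of Gzmb, Nkg7, Ccl5 and Cxcr3. Such a fall is larger than a fall by 1 in log2 FPKM, so the intervals cannot be read as limits on log2 FPKM.

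On normal water none of these genes was called between delivery groups. Only Gzmb and Ccl5 reached the filter, with differences of 0.18 ± 0.44 (limma adjusted p = 0.841) and -0.33 ± 0.42 (adjusted p = 0.681) for CON_CS against CON_VD. Thus 0 of 2 members were called by limma and 0 had an unadjusted p under 0.05, where 0.181% of all tested genes were called higher and 0.226% lower and 2598 had an unadjusted p under 0.05. The ranges of all 10 members overlapped. Without CON_VD replicate 1 the sign of Ccl5 turned (log2 0.13 ± 0.19, adjusted p = 0.770), and the ranges of Cxcr3 lay apart, with 0.289 to 0.425 FPKM in CON_CS against 0.0584 to 0.177 in the other 3 CON_VD libraries. No share over all genes is given beside these ranges, so they are a description.

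The interaction asks whether DSS changed a gene by a different amount in cesarean-born than in vaginally born mice. By limma 0 of 8 tested members were called, and 1 of them, Cxcl9, had an unadjusted p under 0.05. Over all genes 6.68% were called with a larger value in cesarean-born mice and 6.55% with a smaller one. For Cxcl9 the interaction was -1.95 ± 0.69 (95% interval -3.42 to -0.47, adjusted p = 0.0730), over alternatives -2.76 to -1.47 with adjusted p = 0.0331 to 0.158. It passed the threshold only without CON_VD replicate 1 (-2.38 ± 0.62, adjusted p = 0.0331). Cxcl10 gave -0.83 ± 0.71 (adjusted p = 0.466), Gzma -0.46 ± 0.79 (adjusted p = 0.743) and Ccl5 0.21 ± 0.58 (adjusted p = 0.842).

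**Figure D2:**
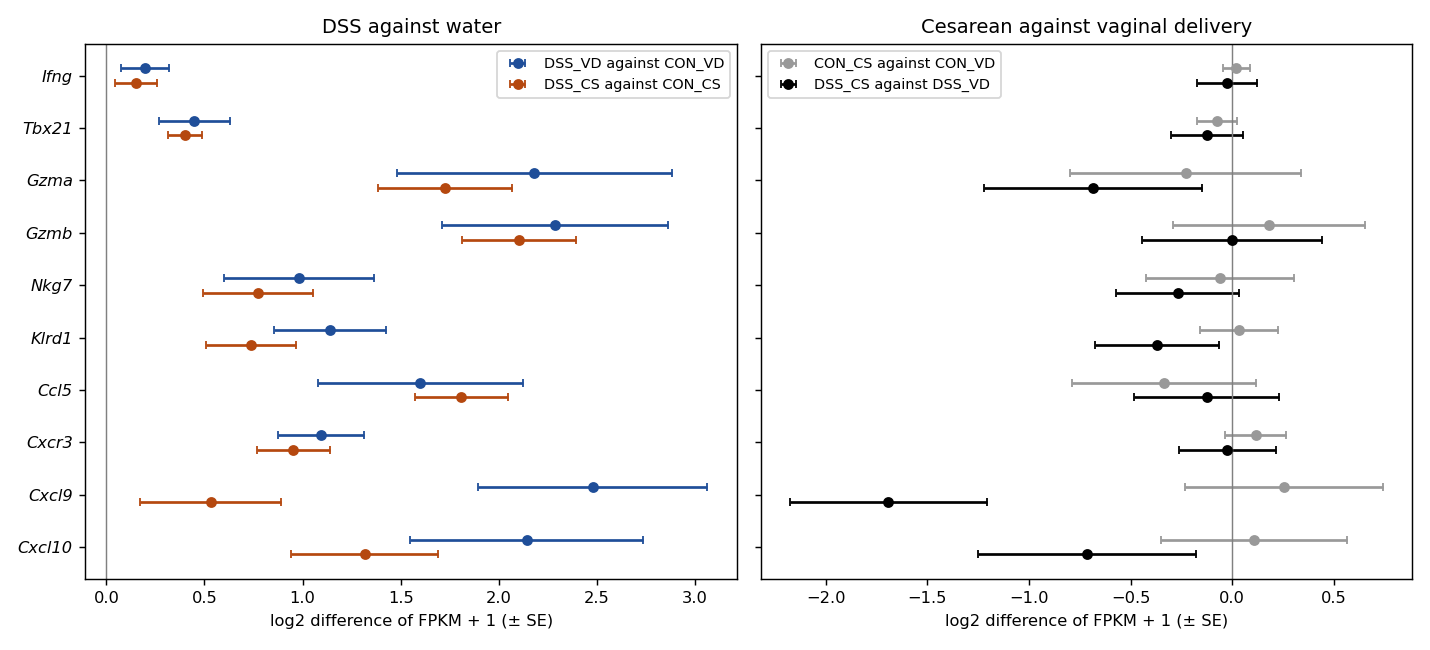
Differences in log2(FPKM + 1) with their standard errors (horizontal axis) for the 10 genes, from limma fits with no filter so that Ifng and Tbx21 are shown; left, DSS against water in each delivery group, and right, cesarean against vaginal delivery on water and on DSS. In the left panel Cxcl9 has the widest gap between delivery groups, 2.48 against 0.53, and in the right panel it is at -1.69 under DSS.

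The lists of other genes below were tested in the same fits, so their counts stand beside the 24.0% and 34.4% of all genes called higher with DSS. List genes that were below 1 FPKM in every water library reached the filter only through their DSS libraries and had to differ, and their number is given with each list. Of the calls between the DSS groups in these lists, none is kept without DSS_VD replicate 1, where limma calls 0 genes of the whole table and 4264 have an unadjusted p under 0.05, and only 1 gene of the table is called without DSS_CS replicate 3 and 6 without DSS_CS replicates 3 and 4.

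Other NK genes were mostly too low to test. Of 26 NK receptor and lineage genes, 8 reached the filter among the DSS libraries. Ncr1, the NK receptor NKp46, had group means of 0.303 and 0.279 FPKM in CON_VD and CON_CS and of 0.931 and 0.524 in DSS_VD and DSS_CS. Eomes, a transcription factor of NK cells, stayed at or below 0.279 FPKM in every library, and Prf1, the pore-forming protein perforin, at or below 0.819. Members of the list listed at 0 throughout a group were Klra4 in CON_VD, and Klra8, Klra9 and Zfp683 in both CON_CS and DSS_CS. In the vaginal delivery groups Klra9 was above 0 only in CON_VD replicate 1 (0.245 FPKM) and DSS_VD replicate 4 (0.612). Zfp683 was above 0 only in CON_VD replicate 2 (0.0132) and DSS_VD replicate 1 (0.0779). Klra8 was above 0 only in CON_VD replicates 1 and 2 and DSS_VD replicates 1 and 4. The summed list ranged from 30.8 to 54.3 FPKM in CON_VD, 37.4 to 42.4 in CON_CS, 97.0 to 196 in DSS_VD and 185 to 256 in DSS_CS. Tyrobp alone, an adaptor that myeloid cells also express, held 51.1 to 111 FPKM of it in DSS_VD and 114 to 151 in DSS_CS.

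With DSS 4 of 7 tested genes of the NK list were higher and 1 lower in vaginally born mice. In cesarean-born mice 7 of 8 were higher and 1 lower. Ncr1 and Eomes did not reach the filter, so these counts are not a measure of NK cells. In cesarean-born mice 3 of the 8 were below 1 FPKM in every water library. Those with the smallest p were Tyrobp and Fcer1g, signalling adaptors shared by NK and myeloid cells (log2 3.03 ± 0.38 and 2.82 ± 0.31 in vaginally born, 3.86 ± 0.10 and 3.63 ± 0.13 in cesarean-born mice), and Il2rb, the receptor chain for interleukins 2 and 15 (1.77 ± 0.24 and 1.80 ± 0.24). Styk1, a kinase-like protein, was lower (-1.36 ± 0.39 and -2.75 ± 0.18). Its mean in CON_VD was 15.3 FPKM, where that of Ncr1 was 0.303, and the cells it came from were not tested. In DSS_CS against DSS_VD 0 of 8 tested genes of the list were called by limma, and 0 had an unadjusted p under 0.05.

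The granule and killing list was tested in the same fits, and the cells behind its values were not resolved. Macrophage and monocyte markers also rose with DSS, 12 of 12 in each delivery group, and their part was not tested. Prf1 did not reach the filter, while Ctsc was at 11.8 to 17.1 FPKM in CON_VD, where Gzmb reached at most 4.05. With DSS 8 of 12 tested genes of the list were higher and 1 lower in vaginally born mice. In cesarean-born mice 8 of 11 were higher and 2 lower. Of the tested genes, 1 and 3 were below 1 FPKM in every water library. The higher genes included Srgn, the proteoglycan that packs granules (log2 3.31 ± 0.31 and 4.47 ± 0.18), Ctsc, the peptidase that activates granzymes (1.61 ± 0.18 and 1.43 ± 0.08), and the granzyme inhibitor gene Serpinb9 (1.91 ± 0.19 and 1.64 ± 0.13). Between the DSS groups 2 of 13 were lower in DSS_CS and none higher: Rab27a, a GTPase of granule docking (-0.54 ± 0.13, limma adjusted p = 0.0365), and Stxbp2, a fusion factor (-0.50 ± 0.14, adjusted p = 0.0495). These calls were lost in 10 and 13 of 16 alternatives, with adjusted p = 0.0787 and 0.0959 without DSS_VD replicate 1. Markers of colon epithelium moved the same way, 12 of 12 below 0 and 6 called lower, with Epcam at -1.48, and their part in the result was not tested. The median of the list was -0.06 there, beside 0.06 over all genes.

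Among 21 type 1 cytokines and inducers, DSS raised 8 of 12 tested genes in vaginally born and 10 of 13 in cesarean-born mice, and lowered 2 in each. Of those tested, 4 and 6 were below 1 FPKM in every water library, Runx3 among them in both. Higher were the cytokine Tnf (log2 3.01 ± 0.29 in vaginally born and 2.29 ± 0.34 in cesarean-born mice) and the transcription factor Runx3 (1.52 ± 0.19 and 1.60 ± 0.16). The genes of the interferon-gamma-inducing cytokines Il18 and Il15 were lower with DSS in both (Il18 -0.90 ± 0.22 and -2.09 ± 0.35, Il15 -0.71 ± 0.22 and -1.25 ± 0.19). Il18 was at 52.8, 66.5, 32.6 and 59.3 FPKM in DSS_VD and at 25.7, 8.81, 8.33 and 20.0 in DSS_CS. These ranges lay apart, and Il18 was the 1 gene of 15 called between the DSS groups (-1.79 ± 0.38, limma adjusted p = 0.0327), a call lost in 8 of 16 alternatives (adjusted p = 0.0726 without DSS_VD replicate 1). Il18 is made by epithelium, and 12 epithelial markers summed to 2182 to 4606 FPKM in DSS_VD and 816 to 2385 in DSS_CS; their part in the result was not tested.

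Chemokines and receptors that work beside the CXCR3 axis rose with DSS, 11 of 12 tested in each delivery group, and Dpp4, a peptidase that trims CXCR3 ligands, was lower (log2 -0.81 ± 0.14 and -1.02 ± 0.20). Of the 12, 3 in vaginally born and 5 in cesarean-born mice were below 1 FPKM in every water library. Between the DSS groups 2 of 12 were higher in DSS_CS and none lower, which is the opposite direction to Cxcl9. Ccl4, a CC chemokine like Ccl5, averaged 4.45 ± 1.40 FPKM in DSS_VD and 33.1 ± 15.3 in DSS_CS (log2 2.58 ± 0.33, limma adjusted p = 0.0225), and Ccl3, another, at 4.93 ± 1.93 and 26.5 ± 7.01 (2.24 ± 0.30, adjusted p = 0.0243). Both calls were lost in 6 of 16 alternatives, among them the fit without DSS_VD replicate 1 (adjusted p = 0.0701 for each) and the one with a replicate block (0.0573 and 0.0604). Both were also called in the interaction (2.88 ± 0.42, adjusted p = 0.00423, and 2.12 ± 0.35, adjusted p = 0.00694), in 23 of 23 alternatives for Ccl4 and 22 of 23 for Ccl3. The receptor gene Cxcr6 differed by -0.0085 ± 0.18 between the DSS groups.

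T cell markers that reached the filter were all called higher with DSS, 12 of 12 in vaginally born and 9 of 9 in cesarean-born mice. Since 3 of the 12 and 6 of the 9 were below 1 FPKM in every water library and had to differ, these counts do not describe the whole list. Cd4 was at log2 2.17 ± 0.23 and 2.75 ± 0.15. Of 17 markers 1 was called between the DSS groups, Thy1 (higher by 0.67 ± 0.14, limma adjusted p = 0.0319, lost in 9 of 16 alternatives), which stromal cells also express. Cd3e had means of 1.83 ± 0.520 FPKM in DSS_VD and 1.59 ± 0.756 in DSS_CS, and Cd8a 1.87 ± 0.970 and 1.29 ± 0.607.

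Genes that interferon-gamma induces were described as a list of 26 receptor, signalling and target genes, which does not hold Cxcl9 or Cxcl10. In vaginally born mice DSS raised 23 of 26 and lowered none (median log2 1.74, beside 0.06 over all genes). Ido1, an enzyme of tryptophan breakdown, rose by 3.30 ± 0.42 there, and Cd274, the checkpoint ligand PD-L1, by 2.0 ± 0.24. In cesarean-born mice DSS raised 13 of 26 and lowered 3 (median 0.54, beside 0.06). The class II regulator Ciita (1.76 ± 0.19), the guanylate-binding protein gene Gbp5 (1.41 ± 0.15) and the antigen-presentation gene H2-Aa (2.03 ± 0.24) were higher, and the receptor chains Ifngr1 (-0.58 ± 0.16) and Ifngr2 (-0.72 ± 0.13) and the transcription factor Irf1 (-0.72 ± 0.20) were lower.

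Between the DSS groups 25 of these 26 genes had a difference below 0, with a median of -0.56 beside 0.06 over all genes, but only 4 were called lower and none higher. The called genes were Ifngr1, at 97.6 ± 12.2 FPKM in DSS_VD and 60.8 ± 9.64 in DSS_CS (log2 -0.68 ± 0.15, limma adjusted p = 0.0339), Gbp2 (-1.15 ± 0.30, adjusted p = 0.0411), the immunoproteasome subunit Psmb9 (-0.77 ± 0.20, adjusted p = 0.0425) and Ifngr2 (-0.58 ± 0.16, adjusted p = 0.0488). The number called was 0 without DSS_VD replicate 1 or 2, without DSS_CS replicate 2, 3 or 4, and without DSS_CS replicates 3 and 4 together, 1 without DSS_VD replicate 3, and 6 without DSS_VD replicate 4 or DSS_CS replicate 1. On water 0 of 22 were called by limma and 4 had an unadjusted p under 0.05, with 19 of 22 above 0 in CON_CS (median 0.37, beside 0.03 over all genes).

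In the interaction 6 of the 26 were called, each below 0, and the median was -1.01 beside 0.04 over all genes. A value below 0 is a lower signed DSS difference in cesarean-born mice, not always a smaller rise. Ifngr1, called here (-0.81, limma adjusted p = 0.0282), fell with DSS in cesarean-born mice (-0.58). The smallest interaction p-values belonged to Gbp2 (-2.58 ± 0.55, limma adjusted p = 0.0124), Ido1 (-2.54 ± 0.55, adjusted p = 0.0132) and Gbp7 (-1.33 ± 0.36, adjusted p = 0.0279). On water Gbp2 was at 1.43 for CON_CS against CON_VD (limma adjusted p = 0.139, not called). Ido1 means were 0.405 ± 0.405 FPKM in CON_VD, 2.39 ± 0.987 in CON_CS, 15 ± 11.4 in DSS_VD and 4.69 ± 1.71 in DSS_CS. Its ranges overlapped on water, with CON_VD up to 1.0 and CON_CS from 0.931 FPKM. They also overlapped under DSS, with DSS_CS up to 7.12 and DSS_VD from 6.98 to 31.4. Ido1 missed the filter on water and was not called between the DSS groups. The number called ranged from 2 to 14 over alternatives, with 14 without CON_VD replicate 1. The part of tissue composition in these values was not tested: the epithelial marker sum given above was lower in DSS_CS, and 6 erythrocyte genes summed to 241 to 975 FPKM in DSS_VD and to 903 to 9733 in DSS_CS.

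**Figure D3:**
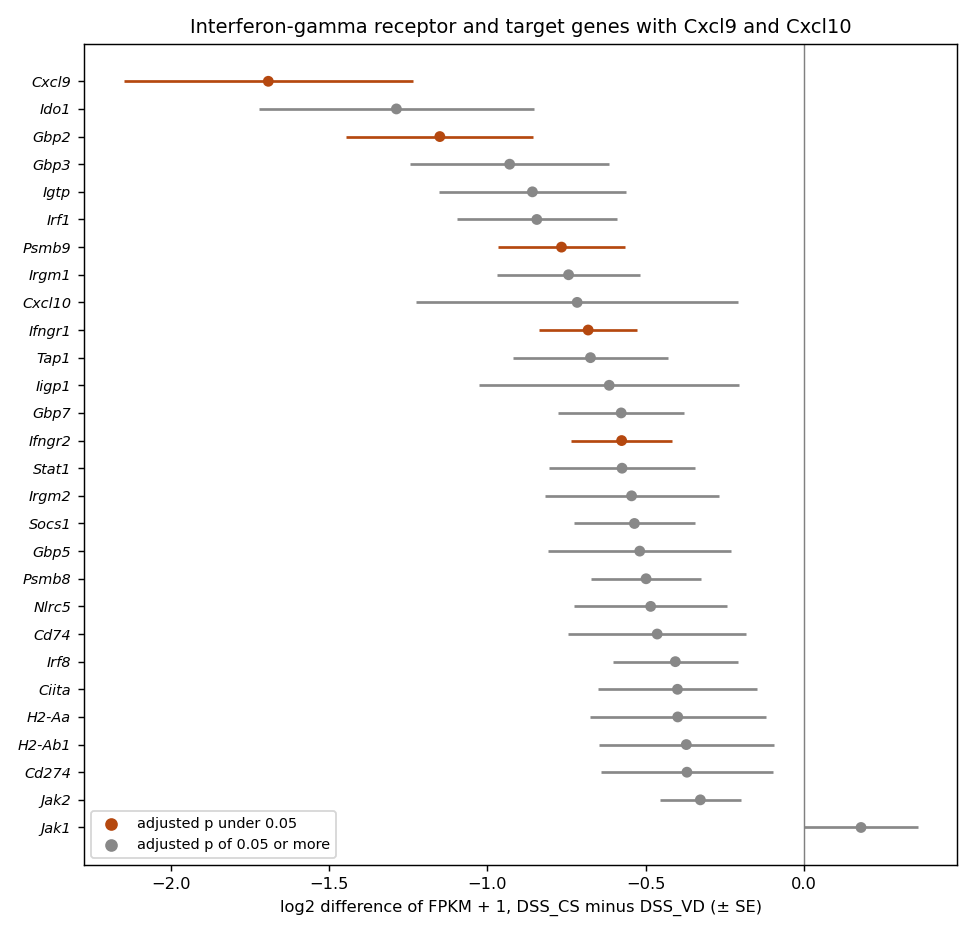
Difference in log2(FPKM + 1), DSS_CS minus DSS_VD, with its standard error (horizontal axis) for the 26 interferon-gamma receptor and target genes and for Cxcl9 and Cxcl10, ordered by size; orange marks an adjusted p under 0.05. Only Jak1, at 0.18, lies above 0, and Cxcl9 is lowest at -1.69.

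Leukocyte RNA rose with DSS, and the members were also expressed relative to it. The 10 leukocyte markers were all higher with DSS in both delivery groups (10 of 10 called in each, median log2 2.74 and 3.46), and they summed to 238 to 457 FPKM in DSS_VD and 313 to 485 in DSS_CS, against 26.2 to 32.6 in CON_CS. As a percent of this sum, Cxcl9 was at 1.32 to 5.70% in DSS_VD and 0.291 to 0.850% in DSS_CS, so the groups still lay apart (exact permutation p = 0.0286), as they did with DSS_CS lower for 1.85% of all genes above 0. In the water groups it was at 0.590 to 3.40% in CON_VD and 1.61 to 7.95% in CON_CS. On this scale DSS_CS was the lowest group for Cxcl9, and its range lay below that of CON_CS.

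The sum used as the divisor rose with DSS, from a median of 32.4 to 399.7 FPKM in vaginally born and from 30.9 to 406 in cesarean-born mice, so a gene that rose by less is lower on this scale. Of all genes above 0, 53.1% lay lower with DSS without overlap in vaginally born and 57.8% in cesarean-born mice, so the members' counts of 3 and 6 of 10 are not a result about the members. In vaginally born mice the percent for Nkg7, Klrd1 and Ccl5 lay lower with DSS without overlap, for example 3.20 to 7.40% in CON_VD against 1.81 to 3.11% in DSS_VD for Ccl5. In cesarean-born mice this held for Gzma, Nkg7, Klrd1, Ccl5, Cxcr3 and Cxcl9, each with an exact permutation p = 0.0286. Exact tests on this scale were a further 40, not adjusted. The mean for Nkg7 went from 3.08% in CON_CS to 0.564% in DSS_CS. Gzmb kept overlapping ranges in both, with means of 1.82 and 2.33% in CON_VD and DSS_VD and 3.81 and 2.08% in CON_CS and DSS_CS. On water Cxcr3 was higher in CON_CS, at 0.964 to 1.62% against 0.194 to 0.756% in CON_VD (exact permutation p = 0.0286), where 6.92% of all genes above 0 were higher without overlap. Cxcl9 was the only member whose percents lay apart between the DSS groups; Klrd1 came nearest, with means of 0.635% in DSS_VD and 0.399% in DSS_CS (exact permutation p = 0.0571).

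**Figure D4:**
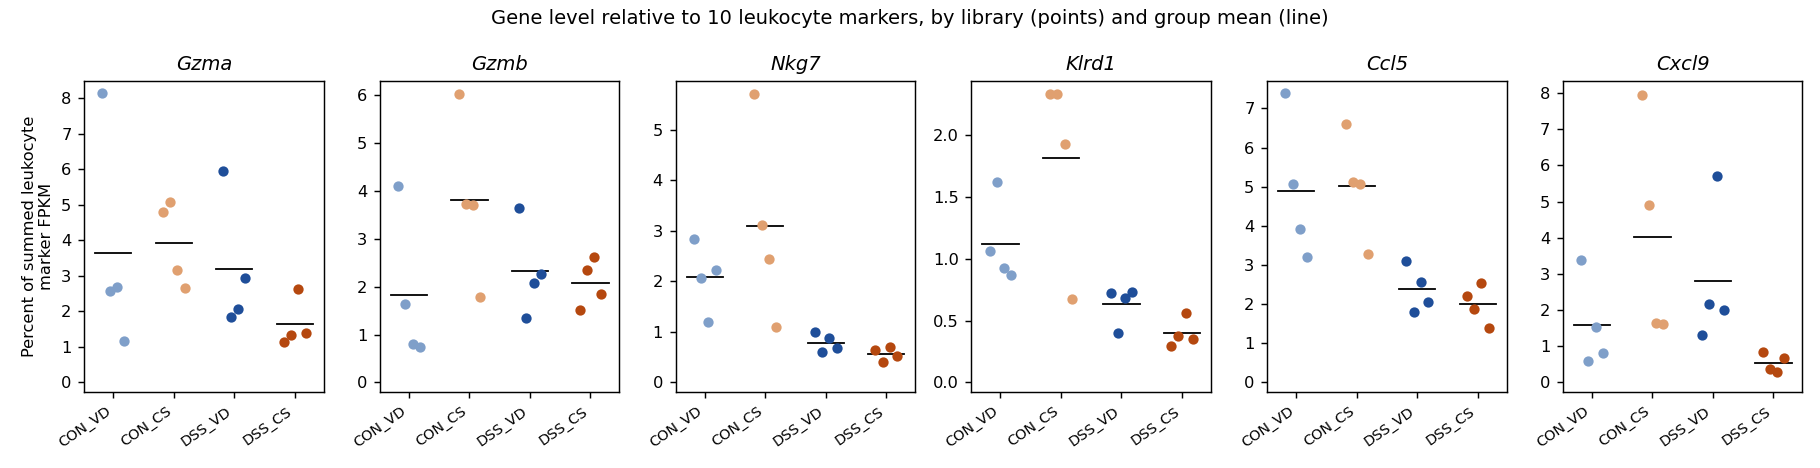
FPKM of 6 genes as a percent of the summed FPKM of 10 leukocyte markers in the same library (vertical axis, linear, a separate scale per gene), by group; points are libraries and lines are group means. Nkg7 and Ccl5 are lower with DSS in both delivery groups without overlap, as are 53.1% and 57.8% of all genes above 0, and Cxcl9 is at 0.291 to 0.850% in DSS_CS.

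The order of the members by mean FPKM is given as a description. Ccl5 had the highest mean in CON_VD (2.80 ± 3.02 FPKM) and CON_CS (1.54 ± 0.514), and Ifng and Tbx21 were the lowest pair in every group. The lead of Ccl5 is not resolved, with Gzma at 2.52 ± 3.68 in CON_VD and Cxcl9 at 1.26 ± 0.999 in CON_CS. In DSS_VD the 5 highest were Gzma (12.8 ± 9.94), Cxcl9 (10.9 ± 9.76), Ccl5 (9.31 ± 4.42), Gzmb (9.27 ± 5.57) and Cxcl10 (9.12 ± 6.85), whose spreads overlap so that their order is not resolved. In DSS_CS Gzmb (8.49 ± 3.24), Ccl5 (8.04 ± 2.88) and Gzma (6.88 ± 4.14) led within each other's spread, Cxcl10 followed at 4.22 ± 1.64, and Cxcl9 was sixth at 2.16 ± 1.0, close to Nkg7 at 2.31 ± 0.865.

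Within groups the members split into sets that varied together from library to library. The deviations from the group mean of Gzma, Gzmb, Nkg7, Klrd1, Ccl5 and Cxcr3 had pairwise Pearson r of 0.78 to 0.96 over the 16 libraries, and of 0.68 to 0.94 without CON_VD replicate 1. Cxcl9 and Cxcl10 had r = 0.82 with each other (0.76 without that library). Between the ligands and the 6 genes r was 0.42 to 0.71, and 0.04 to 0.61 without CON_VD replicate 1. These points share library, tissue composition and depth, so the values are a description.

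The genes most like each of 3 members by the same measure were read from all genes at 1 FPKM or more in at least 4 libraries. For Cxcl9 they were Tgtp1 (r = 0.94), Tgtp2 (0.93), Gbp8 (0.89), Iigp1 (0.89) and Socs1 (0.89), of which Tgtp1 and Tgtp2 are near-identical copies that can share reads. For Nkg7 they were Ncf1 (0.95), H2-DMa (0.95), Ciita (0.94), Itgal (0.94) and Lcp1 (0.94). For Ccl5 they were Gzmb (0.94), Ncf1 (0.94), Rac2 (0.93), Nkg7 (0.93) and Gzma (0.93). Without CON_VD replicate 1, Tgtp1 (0.92) and Tgtp2 (0.89) stayed the first for Cxcl9, while Ssh1 came first for Nkg7 and Ptafr for Ccl5.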

How the data were processed

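RNA from colon was sequenced in 16 libraries, 4 in each of 4 groups, with groups and replicate numbers taken from the labels. The authors deposited 1 table of FPKM values for 39328 genes. Per the labels' protocols, extraction used Trizol. The submitters' processing notes name cutadapt, FastQC and GRCm38 with no version. Aligner, quantifier, annotation and strandedness: not given in the sources used here. Values of overlapping genes and near-identical copies are therefore uncertain. Depth is unknown: in 12971 genes with every value under 0.3 FPKM, at most 0.978% of the log2 ratios of any of 120 library pairs, rounded to 0.01, shared 1 value, so whole reads could not be recovered.

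A symbol was found for 39181 gene identifiers and for 147 none. Positions are from GENCODE M21 and promoter windows from RefSeq, which held 8 of the 10 members (not Klrd1 or Ccl5). Tests used limma 3.58.1 in R 4.3.3, with an intensity trend, on log2(FPKM + 1), a scale that understates the changes of low genes. A tested gene had to reach 1 FPKM in at least 4 fitted libraries. P-values are two-sided, with Benjamini-Hochberg adjustment over all genes tested. Each comparison of groups used its own 8 libraries, and the interaction all 16. Fits were tested on simulated data. Exact permutation tests were used for single members.

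The members and gene lists were chosen with earlier results of these data known, so list counts are no independent evidence. From each list up to 3 genes of smallest p per direction are named. Ncr1, Eomes, Prf1, Cxcl11, Cd3e, Cd8a, Cxcr6, Jak1, Ssh1 and Ptafr are named outside that rule, after their values were seen. Alternatives were a pseudocount of 0.1, other filters, median-of-ratios scaling, no trend, a replicate block, 1 fit on all 4 groups and each library left out. List counts and list genes' calls under every alternative, levels relative to leukocyte markers, and group ranges after scaling or with a library left out were added after seeing the data. Some results are not reported here.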

Additional observations from a re-analysis of the deposited data

Results flagged for a closer look

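In 9 of the 40 sets of 4 libraries (10 genes in 4 groups), 1 library stood far from the other 3: its gap to the nearest of them, divided by the whole range, exceeded Dixon's 95% critical value. Chance alone flags about 1 in 20 such sets, and the sets are not independent, since the genes share libraries. CON_VD replicate 1 was the library in 8 of the 9, with 0.137 FPKM for Ifng, 0.404 for Tbx21, 8.03 for Gzma, 4.05 for Gzmb, 2.81 for Nkg7, 7.31 for Ccl5, 3.35 for Cxcl9 and 2.98 for Cxcl10. The same library had the highest sum of leukocyte markers among the water libraries, 98.7 FPKM, and the part of leukocyte content in these values was not tested. The remaining set was Cxcl9 in DSS_VD, where replicate 3 was at 25.5 FPKM and the others at 5.16 to 7.02.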

How the results depend on the processing

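Of 535 alternatives run on single members, 473 kept direction and side of the threshold, 33 kept the direction and lost the call, 6 gained a call and 23 changed sign, none of these a called difference. Between DSS_CS and DSS_VD, 1923 genes were called; the count was 3 with no filter, 2 with the replicate block, 3871 with 1 fit on all 4 groups, 6 without DSS_CS replicates 3 and 4, and 0 (without DSS_VD replicate 1) to 2054 with single libraries left out. It was 1 without DSS_CS replicate 3. The 1 call among the members, Cxcl9, became 0 with no filter, with a filter at 0.1 FPKM, with the replicate block (adjusted p = 0.0966) and without DSS_CS replicates 3 and 4, and the number was 0 to 1 with single libraries left out. In CON_CS against CON_VD the 54 called genes became 3 with no filter, 28 with the 0.1 filter, 7 with the replicate block and 0 to 275 with libraries left out. For DSS in cesarean-born mice the members called went from 5 to 8 with the 0.1 filter, where 6610 of 20751 genes tested were called higher. They went to 4 with the replicate block, where 4708 of 14372 genes tested were called higher. They were also 4 without DSS_CS replicates 3 and 4, and 4 to 5 with single libraries left out. In vaginally born mice they went from 6 to a range of 3 to 7 with libraries left out. The count of 3 was without DSS_VD replicate 1, where 2343 of 13265 genes tested were called higher. The count of 7 was without DSS_VD replicate 2, where 3134 of 13348 were. The interaction count of 2015 genes became 1042 with no filter, 1102 without DSS_CS replicates 3 and 4, and 1056 to 2515 with libraries left out, and its count of members 0 to 1. The cause of these shifts was not tested.

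Small uncalled differences turned sign. Between the DSS groups Gzmb was at 0.0178 with a pseudocount of 0.1 and, with libraries left out, at -0.374 to 0.318, Ccl5 at -0.408 to 0.0997 and Cxcr3 at -0.19 to 0.125. On water Gzmb was at -0.0196 to 0.358 and Ccl5 at -0.56 to 0.132. In the interaction Ccl5 was at -0.00817 without DSS_CS replicates 3 and 4 and at -0.257 to 0.435 with libraries left out, Gzmb at -0.662 to 0.137 and Cxcr3 at -0.307 to 0.00816. Group ranges lay apart for 1 to 2 members between the DSS groups with libraries left out (Cxcl10 joined without DSS_VD replicate 2), 0 to 1 on water and 2 to 10 for DSS in vaginally born mice. Apart from the 16.9% without CON_VD replicate 1 for DSS in vaginally born mice, no share over all genes is given for these sets. With fewer libraries ranges lie apart more easily, so these counts are not a result about the members. Same-numbered libraries deviated from their group means with correlations of -0.278 to 0.127, which does not pair them. With unknown depth, Ifng and Tbx21 near 0 FPKM cannot be resolved.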

Other observations

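B and plasma cell markers moved with DSS alongside the cytotoxic genes, 8 of 8 higher in each delivery group by limma, where 2 of the 8 were below 1 FPKM in every CON_CS library and had to differ (median log2 3.13 in vaginally born and 3.72 in cesarean-born mice, beside 0.06 over all genes in both). Macrophage and monocyte markers also rose, 12 of 12 in each. Between the DSS groups 1 of the 12 was called, Itgam, which was higher in DSS_CS by 1.31 ± 0.34 (limma adjusted p = 0.0415), a call lost in 10 of 16 alternatives (adjusted p = 0.0879 without DSS_VD replicate 1).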
